A study of Mus musculus with 2 samples.

Results

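T cells that carry transcripts of the delta or gamma chain of the T cell receptor were picked out of 2 single-cell libraries of mouse dorsal skin. A barcode, the label of 1 droplet, was a member when it held at least 1 unique molecular identifier (UMI, 1 counted transcript molecule) of Trdc, Trdv4 or Tcrg-C1. It also had to show at least 2 of the 6 T cell genes Cd3e, Cd3g, Cd247, Cd7, Skap1 and Themis, and fewer than 10 UMIs of C1qa, C1qb and C1qc per 10000, which leaves out macrophages. The search ran over barcodes with 200 to 8000 genes and at most 10% mitochondrial UMIs. Of 62289 such barcodes, 250 were members, 192 in the control library (Con) and 58 in the testosterone library (TP). All animals were male C3H/HeN mice, shaved at 7 weeks and sampled at 9 weeks of age. TP mice received testosterone propionate, an androgen ester, under the skin at 0.5 mg per day as a model of androgenetic alopecia, and Con mice received the vehicle. Skin of 15 mice per group was pooled, digested with collagenase D and cleared of debris on Percoll, and each pool gave 1 library, so no animal can be told from another and no difference between the groups could be tested. A group given TP and an antibody to CXCL12 is not analysed here.

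Gamma delta T cells recognise targets through a receptor of a gamma and a delta chain, and most T cells of other tissues use alpha and beta chains in their place. In mice the epidermis holds a resident gamma delta population, the dendritic epidermal T cells, which leave the fetal thymus with an almost uniform receptor, settle between keratinocytes and renew themselves there. They carry killer cell type receptors that sense stressed keratinocytes, and they are known for their part in wound repair and in watching over the hair follicle. A separate gamma delta population of the dermis makes interleukin 17.

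The libraries differed in depth. Con held 130999979 UMIs in 45709 barcodes and TP 166929585 in 25931, and the median passing barcode had 2162 UMIs in Con and 5166 in TP. Members had a median of 1759 UMIs (range 553 to 20477) in Con and 2437 (704 to 45605) in TP, with a median mitochondrial share of 2.00% and 2.13%. Every interval given here is at 95%, exact, and covers counting error only, not differences between mice, dissociations or libraries. Intervals of UMI sums and of their ratios count each UMI as independent. They leave out the spread between members, so they are too narrow where few members hold most UMIs of a gene. The libraries shared 303 barcodes, no barcode was a member in both, and 1 TP member had a barcode that also occurs in Con.

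A few barcodes weighed heavily on the sums. The 4 deepest members held 14.0% of all member UMIs in Con and 46.0% in TP. Members deeper than 3 times their library's median numbered 20 in Con and 8 in TP and held 38.7% and 59.8% of the UMIs. Keratinocyte, fibroblast, macrophage, melanocyte and endothelial markers together exceeded 200 per 10000 UMIs in 15 Con and 7 TP members. The remaining barcodes, neither deep nor mixed in this sense, are called compact members below: 167 in Con with 310539 UMIs and 49 in TP with 119787. A search for doublets, droplets that hold more than 1 cell, marked 6 of the 192 Con and 30 of the 58 TP members. These were 3.1% and 51.7% of members, while the search was set to mark 7.5% of passing barcodes in each library. The marked members had a median of 7015.5 UMIs in Con and 2744 in TP, beside 5302 and 13305 for all marked barcodes. That search compared each barcode with 563 neighbours in Con and 267 in TP, more than there were members in either library. Whether the marked members are doublets was not tested. They were kept, and values from compact members, and for many genes values without the marked members, are set beside those from all members.

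**Figure D1:**
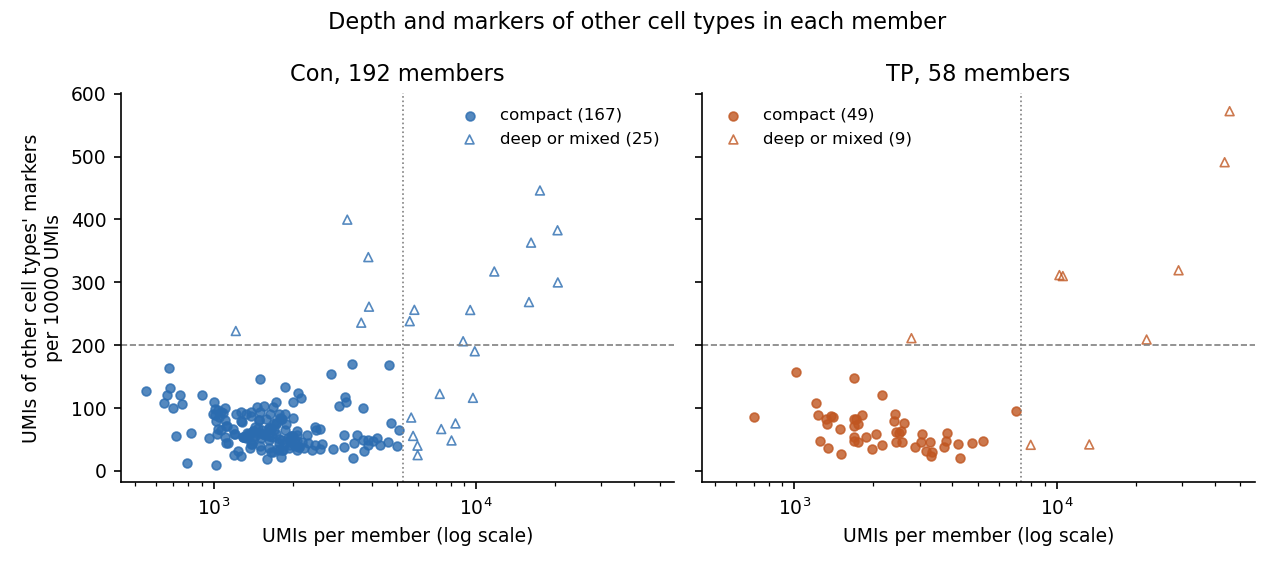
Each point is 1 member, with its UMIs on a log scale and its UMIs of keratinocyte, fibroblast, macrophage, melanocyte and endothelial markers per 10000. The dashed line marks 200 per 10000 and the dotted line 3 times the median depth of the library's members. The 25 Con and 9 TP members outside these limits (open triangles) include the deepest barcodes of each library, up to 20477 UMIs in Con and 45605 in TP.

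The receptor transcripts that chose the members are described first, with no test. Trdc, the constant segment of the delta chain (GRCm38.p6 chr14:54142851-54146108), had 460 UMIs in 156 of 192 Con members and 208 in 54 of 58 TP members. Trdv4, the delta variable segment used by dendritic epidermal T cells (chr14:54075004-54075515), had 220 UMIs in 123 Con and 91 in 41 TP members. Tcrg-C1, a constant segment of the gamma chain, had 166 UMIs in 98 Con and 72 in 30 TP members. All of these receptor genes were seen together in 64 Con members (33.3%) and 23 TP members (39.7%). Trdc alone was seen in 39 and 10 members, Trdv4 alone in 24 and 3, and Tcrg-C1 alone in 8 and 1. At the edge of the rule, 44 Con and 9 TP members had a single receptor UMI, and 9 Con and 6 TP members showed exactly 2 of the 6 T cell genes. The full set of 6 T cell genes was seen in 64 Con and 29 TP members. Just outside, 5 Con barcodes and no TP barcode had a receptor UMI with 1 T cell gene, and 80 Con and 55 TP barcodes had a receptor UMI with none.

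Few receptor segments beside those of the rule were detected. The other delta variable segments measured, Trdv1, Trdv2-1, Trdv2-2, Trdv3 and Trdv5, had 0 UMIs in all 250 members. Among gamma variable segments, Tcrg-V5, the partner of Trdv4 in dendritic epidermal T cells, led with 31 UMIs in 26 Con members and 13 UMIs in 10 TP members. Tcrg-V1 had 10 and 7 UMIs, Tcrg-V6, known from interleukin 17 producing cells, had 4 and 2, and Tcrg-V4 had 0 and 3. Tcrg-V3 and Tcrg-V7 were at 0 in both. Tcrg-C4, another gamma constant gene, had 56 UMIs in 45 Con and 34 in 25 TP members, and Tcrg-C2 had 19 and 5. The kit reads transcripts from their 3′ end and variable segments lie at the 5′ end, so a segment at a few UMIs was measured with little depth.

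Transcripts of the beta chain constant genes were common in members, and those of the alpha chain were nearly absent. Trbc2 had a UMI in 38.0% of Con members (interval 31.1 to 45.3%) and in 58.6% of TP members (44.9 to 71.4%), and Trbc1 in 27.1% and 56.9%. After thinning to 1000 UMIs per barcode, Trbc2 was seen in 25.3% and 24.6%, and Trbc1 in 19.7% (14.1 to 26.3%) and 33.3% (21.4 to 47.1%), intervals that overlap. Trac, the alpha constant gene, had 1 UMI in Con and none in TP, where 0 of 58 members allows, at 3 counts, a share of up to 5.17% of members with a UMI, which is no limit on the share of cells that express it. The alpha beta coreceptors Cd8a and Cd8b1 were at 0 in all members, Cd4 had 1 UMI in 1 TP member, and Foxp3 was at 0. Cd5 and Cd6, surface proteins of most circulating T cells, also had 0 UMIs in both libraries.

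The comparison with all other passing barcodes ranked genes by the lower of the CPM ratios in the 2 libraries, where CPM is UMIs per 1000000 of the summed members. The 20 leading genes included Prf1, Cd3d, Kir3dl1, Nkg7, Klrd1, Klrb1b, Tcrg-C4, Trat1, Grap2, Kir3dl2, Clnk, Cdh17, Samd13, Ctsw, Il2rb, Ctla2b, Sytl3, Zap70 and Olfm3. Cd3d, a chain of the signalling complex of the receptor that lies between Cd3g and Cd3e on chromosome 9, stood at 302 CPM in Con members and 288 in TP members. Trat1 and Grap2, adaptors of receptor signalling, stood at 445 and 439 CPM and at 640 and 787 CPM. Zap70, a kinase behind the receptor, stood at 65.7 CPM in Con and 111 in TP. Because members were chosen on genes of the same cells, these ratios describe them and are no test.

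The killer machinery was represented by its pore and granule membrane genes without its main granzymes. Prf1, the pore-forming perforin, had 130 UMIs in 78 Con members and 58 UMIs in 30 TP members. Nkg7, a granule membrane protein, stood at 554 CPM in Con and 528 in TP, and Ctsw, a lymphocyte cathepsin, at 302 and 351. Gzma had 0 and 1 UMIs and Gzmb 0 and 2, while Gzmd, Gzme, Gzmf, Gzmg, Gzmk and Gzmm were at 0. Gzmc had 7 UMIs in 2 Con members and 44 in 2 TP members, of which 38 lay in 1 TP member. Of the 19 cytotoxic granule genes listed, 12 had a UMI in members.

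Killer cell type receptors were spread widely over the members. Klrd1, the CD94 chain, had UMIs in 92 Con and 37 TP members, Klrk1, the NKG2D receptor, in 50 and 23, and Klrb1b in 72 and 32. Cd244a, a receptor of the SLAM family, was seen in 106 Con and 39 TP members. Kir3dl1 and Kir3dl2, killer immunoglobulin type receptors on the X chromosome whose near-identical sequences make their split uncertain, were seen in 46 and 54 Con members and in 22 and 18 TP members. Jaml, the costimulatory receptor by which epidermal T cells bind keratinocytes, had 52 UMIs in each library, in 41 Con and 24 TP members. Eomes and Ncr1, which mark natural killer cells, had 0 UMIs in Con and 1 and 7 UMIs in TP.

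Genes of tissue residence were present and genes of recirculation were not detected or nearly so. Itgae, the integrin chain that binds E-cadherin on keratinocytes, had 189 UMIs in 114 Con members and 92 in 42 TP members. Its partner chain Itgb7 had 61 and 31 UMIs. Runx3, a transcription factor of resident and cytotoxic lymphocytes, was seen in 118 and 48 members, Rgs1 in 102 and 41, and Ahr, the aryl hydrocarbon receptor on which epidermal T cells depend, in 63 and 30. S1pr1, the receptor for leaving tissue, was at 0, Klf2 had 0 and 1 UMIs, and Ccr7 had 2 in each library. Cxcr4, the receptor of CXCL12, had 1 UMI in Con members and 0 in TP members.

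After every barcode was thinned at random to 1000 UMIs, which left 178 Con and 57 TP members, the shares of members with such genes remained far above those in epithelial barcodes, which are taken as the background. Thinned Itgae was seen in 41.0% (33.7 to 48.6%) of Con and 49.1% (35.6 to 62.7%) of TP members, against 0.106% and 0.0482% of epithelial barcodes, whose median depth was 3126 and 5045 UMIs. Grap2 was seen in 58.4% and 64.9% of members and at most 0.0241% of epithelial barcodes. Tox, a transcription factor of long-lived T cells, was seen in 61.2% (53.7 to 68.4%) of Con and 78.9% (66.1 to 88.6%) of TP members. Such genes were also seen in other immune barcodes. Among barcodes with T cell genes but no receptor UMI, Tox was seen in 49.2% and 59.0% and Itgae in 21.3% and 25.6%. Barcodes with at least 50 MHC class II UMIs per 10000 showed Rgs1 in 23.3% and 36.3% and Runx3 in 23.3% and 17.6%. Members stood at 37.6% and 57.9% for Rgs1 and at 40.4% and 57.9% for Runx3.

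**Figure D2:**
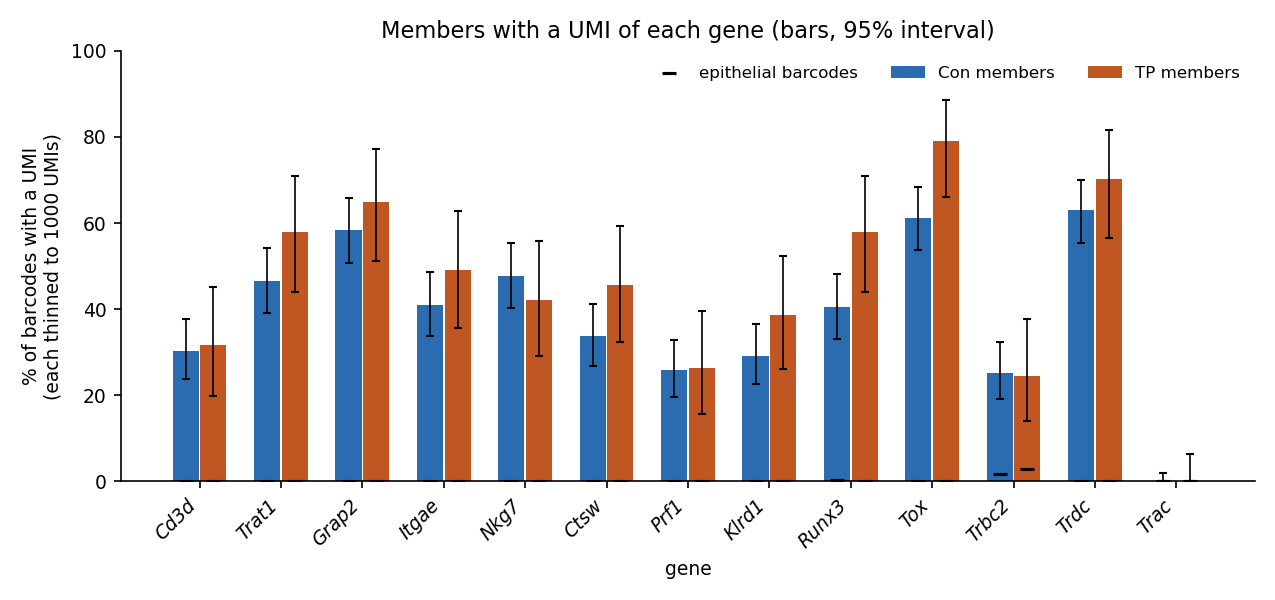
Bars give the percentage of members with a UMI of each gene after thinning to 1000 UMIs, in Con (178 members) and TP (57 members), with 95% counting intervals, and short black dashes give epithelial barcodes. Trdc was used to choose the members. Trac stands at 0% in both libraries after thinning, while Grap2 stands at 58.4% and 64.9%, and the dashes lie at or near 0 for every gene but Trbc2 (1.72% and 2.89%).

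Promoters of the leading genes are shown because Runx3 was so widely seen in members. RefSeq windows of 300 bases, from 250 before to 50 after the start (GRCm38.p6), were found for 13 of the 20 leading genes and searched for the RUNX core TGTGGT and its reverse complement ACCACA. Of these 13 windows, 5 (38.5%) held the core, in Prf1, Nkg7, Trat1, Clnk and Sytl3, against 16.8% of all 32851 windows of this length. The windows of the highest ranked genes with the core are given with the core in capitals, for Prf1 on the plus strand at chr10:61297586-61297885 and for Nkg7 on the plus strand at chr7:43436888-43437187.
Prf1: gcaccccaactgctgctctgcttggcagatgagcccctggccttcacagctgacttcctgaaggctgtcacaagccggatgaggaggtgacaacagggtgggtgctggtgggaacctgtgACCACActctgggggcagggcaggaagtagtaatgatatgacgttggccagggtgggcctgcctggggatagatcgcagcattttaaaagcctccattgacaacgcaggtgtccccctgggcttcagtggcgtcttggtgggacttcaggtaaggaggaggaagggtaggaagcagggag
Nkg7: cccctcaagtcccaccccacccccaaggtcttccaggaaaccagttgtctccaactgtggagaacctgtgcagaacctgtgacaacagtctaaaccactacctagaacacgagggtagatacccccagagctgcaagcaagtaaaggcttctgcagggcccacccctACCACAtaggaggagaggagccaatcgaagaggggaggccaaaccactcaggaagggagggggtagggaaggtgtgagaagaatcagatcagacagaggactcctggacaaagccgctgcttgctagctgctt
A match describes letters in the window and is not a measured binding site.

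Of 3650 genes with at least 50 UMIs over all members and no part in the rule, 113 (3.1%) were at least 20-fold higher in members than in other passing barcodes in both libraries. The 111 of them with a gene symbol are called lineage genes below. Beside immune genes they held several known mainly from neurons. Cntn1, a contactin of axons, had UMIs in 171 of 192 Con and 53 of 58 TP members. Kcnma1, a calcium-activated potassium channel, was seen in 163 and 53 members and Lsamp, a neural adhesion protein, in 135 and 38. Lhfpl3, Scn8a, Olfm3, Rimbp2 and Ctnnd2 belonged to the same group. After thinning, Cntn1 was seen in 73.0% of Con and 73.7% of TP members and in 0.950% and 0.313% of epithelial barcodes.

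The cytokines of the interleukin 17 programme of dermal gamma delta T cells were not detected. Il17a, Il17f, Il22, Blk and 5830411N06Rik were at 0 in all members, and Il23r had 7 UMIs in Con and 2 in TP. For Con, 0 of 192 members allows, at 3 counts, up to 1.56% of members with a UMI, and again no limit on expressing cells at this depth. Of its 21 listed genes 16 had a UMI, and 5 had at least 50. Cxcr6, a chemokine receptor of resident lymphocytes and a lineage gene, had 63 and 30 UMIs, Cd44 had 211 and 107, and Maf had 76 and 44. Il7r, the interleukin 7 receptor, had 0 UMIs in Con and 10 in 3 TP members. At least 2 of Il7r, Il18r1, Il23r, Ccr2, Zbtb16 and Il1r1, a set chosen after its values were seen, were found in 5 of 192 Con and 5 of 58 TP members. Those members held 10 of the 40 UMIs of the set in Con and 44 of 69 in TP, and 1 of the Con and 3 of the TP members were compact.

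Markers that define other cell types were checked as whole lists. Of 9 macrophage markers 7 had a UMI, but apart from Apoe, at 619 and 270 UMIs, each had at most 4 UMIs per library and Adgre1 was at 0. C1qa, C1qb and C1qc are among the 9, and the rule itself kept them low, so they are no check. Of 6 mast cell markers, Cpa3, Mcpt4, Tpsb2 and Fcer1a were at 0. Kit, shared with melanocytes, had 20 and 3. B cell, neutrophil and endothelial markers had at most 3 UMIs each in either library. Of 4 melanocyte markers, Dct led with 42 and 3 UMIs, and 7 of 8 dendritic cell markers had UMIs, summing to 129.6 CPM in Con and 1177 in TP, with Cd207 at 0. MHC class II transcripts made up most of that sum in TP, and 276 of their 283 UMIs lay in 1 TP member. The 13 keratinocyte markers all had UMIs, and their sum ranged from 9.78 to 420 per 10000 over Con members, with a median of 54.7, and from 18.04 to 568 over TP members, with a median of 56.3. The sum of the 6 fibroblast markers ranged from 0 to 35.4 in Con and from 0 to 107 in TP, with medians of 0 and 3.03. The part of these transcripts in the differences between libraries was not tested.

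Members made up a smaller share of barcodes in TP than in Con. They were 0.455% of passing barcodes in Con (0.393 to 0.523%) and 0.289% (0.220 to 0.374%) of those in TP. The ratio of the shares was 0.637 (0.466 to 0.858). With every barcode thinned to 1000 UMIs, 133 of 36882 Con and 43 of 19154 TP barcodes met the receptor and T cell gene conditions, a ratio of 0.623 (0.431 to 0.884). Compact members alone gave 0.618 (0.440 to 0.855). Per 100 barcodes with UMIs of Ptprc, the pan-leukocyte gene, there were 43.4 members in Con and 9.65 in TP, a ratio of 0.222, with 442 Con and 601 TP barcodes showing Ptprc. This is no share, since 31 Con and 4 TP members had no Ptprc UMI, and the members among Ptprc barcodes were 36.4% and 8.99%, a ratio of 0.247 (0.178 to 0.338). Set over the 36408 Con and 13210 TP barcodes with under 20 UMIs of Krt5 and Krt14 per 10000, all members gave a ratio of 0.833 (0.610 to 1.12), and the 171 Con and 54 TP members that were themselves below that limit gave 0.870 (0.629 to 1.19), intervals that include 1. Without called doublets the ratio of shares was 0.317. A share depends on how many other cells were captured, so these values do not count cells per area of skin, and with 1 library per condition the groups cannot be told apart from the libraries.

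**Figure D3:**
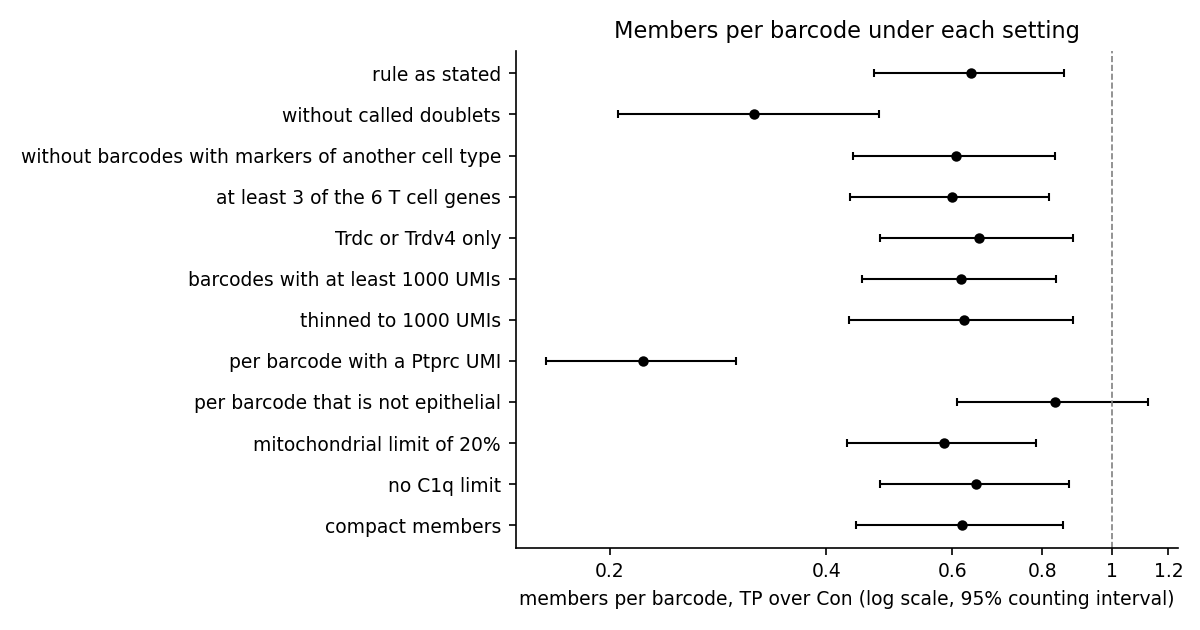
Points give the number of members per barcode in TP over that in Con on a log axis with 95% counting intervals. They are given for the stated rule and for each alternative. All members are counted over the Ptprc barcodes and over those low in Krt5 and Krt14 ("not epithelial"). The latter are set by the limit on Krt5 and Krt14 stated above, and whether they hold no other epithelial cells was not tested. Ratios ran from 0.222 per barcode with Ptprc to 0.833 per barcode low in Krt5 and Krt14. All were below 1, and only the interval of the 0.833 reaches past 1.

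The comparison of transcripts between libraries asked which genes differed in these cells after testosterone. With UMIs summed over members, 1 UMI added and a limit of 2-fold on CPM, 298 of 3650 genes (8.16%) passed the limit, 120 (3.29%) upward in TP and 178 (4.88%) downward. With every member at the same weight these were 144 (3.95%) and 286 (7.84%). The genes furthest apart were mostly those of other cell types, and many lay in few barcodes. Those with the largest positive log2 ratio were Flg, Krt16, Sprr1b, Klk6, Lor, H2-Aa, Sprr1a, Ly6m, Cd74 and Klk9, most of them genes of cornifying keratinocytes or of antigen presentation. Of 937 Flg UMIs in TP members, 936 lay in 1 member, as did 145 of 150 Cd74 UMIs and all 61 of H2-Aa. The largest negative log2 ratios were those of Ebf1, Dcc, Corin, Sostdc1, Trpm3, Vcan, Rspo3, Fgf7, Dach1 and Alcam, which include genes of the dermal papilla, the signalling centre of the hair follicle. Sostdc1 had 166 UMIs in 26 Con members, 83 of them in 1 member, and 2 UMIs in TP. Ebf1 had 109 UMIs in 10 Con members and none in TP. Dach1 and Alcam were spread more widely, over 43 and 45 Con members and 2 and 5 TP members, and in compact members they had 113 and 87 UMIs in Con and 0 and 1 in TP. Both had somewhat fewer UMIs per 1000000 in members than in other passing barcodes of either library, and the part of free RNA in their difference was not tested.

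In compact members, 107 of the 1955 genes with enough UMIs (5.47%) passed the limit upward in TP and 120 (6.14%) downward. Of these 1955 genes, all members together called 26 higher and 57 lower, and 19 and 42 were called both ways. With edgeR's TMM factor, which raised every log2 ratio and moved the median over genes from -0.08 to 0.06, 164 genes were higher and 126 lower in TP. The balance of higher to lower genes therefore depends on the scaling.

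Lineage genes differed little in the sums over all members and more in compact members. They were chosen for high values in the members of both libraries, so a gene high in 1 library alone could not enter. Their low share past the limit over all members is in part set by that choice. Their median log2 ratio was 0.13 over all members, where 2 of 111 (1.8%) were 2-fold higher and 1 (0.901%) lower. In compact members the median was 0.71, and 25 (22.5%) were higher and none lower. Their summed UMIs, with the 6 T cell genes of the rule, were 3.49% of all UMIs in Con members and 3.68% in TP members, and 5.37% and 8.34% in compact members. The 25 include Zap70, Tox, Rgs1, Il2rb, Vav1 and Dock2, and this higher share of lineage transcripts stood beside each of them. When compact members were scaled to that lineage sum, the median was 0.08, and a median near 0 follows largely from scaling to these same genes. Xcl1 and Cd163l1 stayed 2-fold higher in TP. Lhfpl3 and Lsamp, which were not 2-fold apart before that scaling, came to lie 2-fold lower. Without called doublets, which leaves 28 TP members, the median of the 111 genes was -0.38, with 2 genes 2-fold higher and 15 lower, where 120 of 2806 genes tested in that setting (4.28%) were higher and 197 (7.02%) lower, so the direction for most lineage genes depends on which barcodes are kept. Xcl1 and Cd163l1 were 8.62 and 4.33 times as high in TP in that setting, while Cd3d, Prf1 and Nkg7 stood at 0.297, 0.296 and 0.363 times the Con level. Of the 168 Xcl1 UMIs of TP members, 112 lay in 1 compact member. No ratio without that member was computed in compact members or without called doublets.

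**Figure D4:**
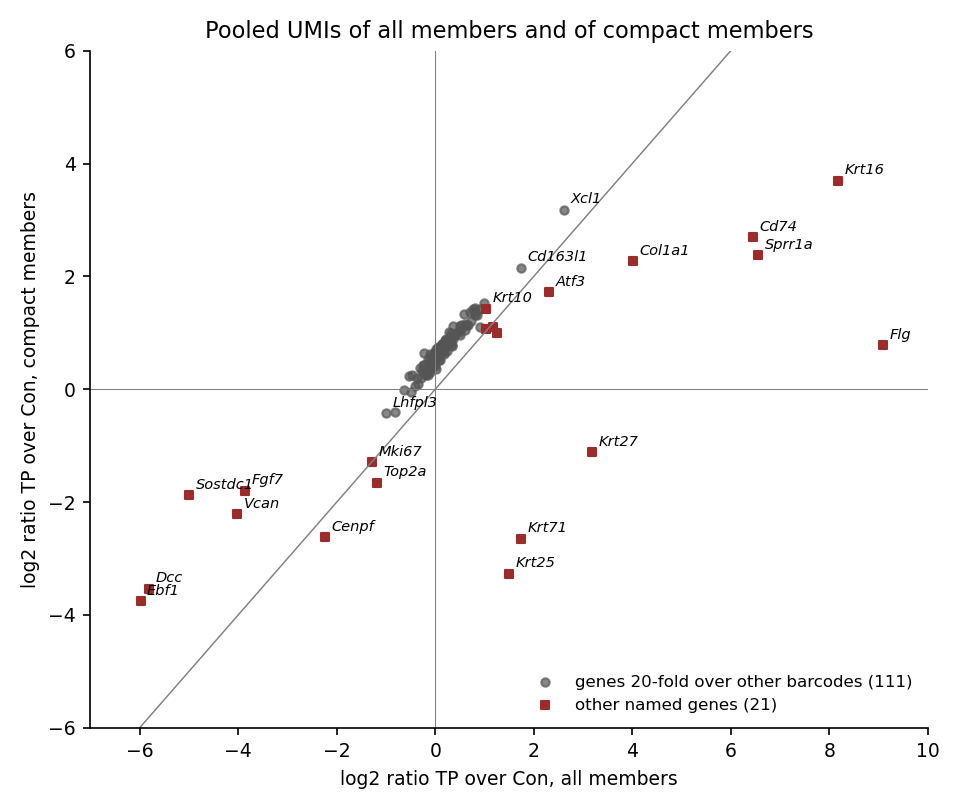
Each point is 1 gene, with its log2 ratio of CPM in TP over Con from all members (horizontal) and from compact members (vertical), and the grey diagonal marks equal values. The 111 lineage genes (grey circles) have medians of 0.13 and 0.71, and Xcl1 and Cd163l1 stand above the others. Flg, at 9.09 over all members and 0.79 in compact members, and Krt71, Krt25 and Krt27 (squares, 21 other named genes) lie far below the diagonal.

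Cd163l1 differed over many members. It encodes a scavenger receptor known from gamma delta T cells (chr7:140197218-140231145). It had 41 UMIs in 24 of 192 Con members, 77.0 CPM (55.3 to 104), and 80 UMIs in 25 of 58 TP members, 262 CPM (208 to 326), a ratio of 3.41 (2.31 to 5.09). In compact members the ratio was 4.50 (2.98 to 6.90), and without the TP member with most of its UMIs, 9 of 80, it was 3.07. After thinning, 10.1% (6.10 to 15.5%) of Con and 35.1% (22.9 to 48.9%) of TP members showed it, and no epithelial barcode did.

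Xcl1, the chemokine lymphotactin that draws cross-presenting dendritic cells (chr1:164931644-164935522), had 47 UMIs in 21 Con members and 168 UMIs in 15 TP members. Its ratio was 6.24 (4.49 to 8.82), but 112 of the TP UMIs lay in 1 member. Without that member the ratio was 2.11 (1.40 to 3.17), and among members with at least 3 of the 6 T cell genes it was 1.97, under the 2-fold limit. After thinning, 7.87% (4.37 to 12.8%) of Con and 14.0% (6.26 to 25.8%) of TP members showed it, with intervals that overlap. The Xcl1 sum was also higher in TP among barcodes with T cell genes but no receptor UMI. There it had 40 UMIs (142 CPM) in 10 Con barcodes and 143 UMIs (362 CPM) in 9 TP barcodes. Their thinned shares were 9.84% and 15.4%.

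Lsamp and Lhfpl3 were lower in TP relative to the other lineage genes. Lsamp had 1359 UMIs in 135 Con members and 442 in 38 TP members, 2552 and 1449 CPM, a ratio of 0.568 (0.509 to 0.632), and in compact members the ratio was 0.759 (0.674 to 0.853). Lhfpl3 had 317 UMIs in 84 Con members and 90 in 23 TP members, with a ratio of 0.495 (0.388 to 0.628), and 0.737 in compact members. Without called doublets the ratios were 0.450 for Lsamp and 0.208 for Lhfpl3. The shares of members with a UMI, not thinned, were 70.3% in Con and 65.5% in TP for Lsamp and 43.8% and 39.7% for Lhfpl3. TP members were deeper, with a median of 2437 UMIs against 1759, so these shares do not compare the libraries at equal depth.

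The 18 lists, called T cell lists here, were read against the background given above. They also hold genes shared with other cells, namely immediate-early and heat shock, steroid response, interferon response, MHC class I, cell cycle and survival genes. Of their 100 genes with at least 50 UMIs and no part in the rule, 9 were 2-fold higher in TP, where 3.29% of all genes were, and 4 were lower, where 4.88% were. The 9 were Gzmc, Xcl1, Cd163l1, Junb, Egr1, Atf3, Tnfaip3, Dnajb1 and Pcna, and the 4 were Fgf7, Mki67, Top2a and Cenpf. Of these, Junb, Egr1, Atf3, Tnfaip3 and Dnajb1 are from the immediate-early and heat shock list. Pcna, Mki67, Top2a and Cenpf are from the cell cycle list, so most called genes are not particular to T cells. In compact members 78 list genes had enough UMIs, and 16 were higher and 2 lower, where 5.47% and 6.14% of all 1955 genes were. Over all members, no gene was 2-fold apart among 3 alpha beta genes, 3 innate lymphoid genes, 6 cytokine receptors, 11 residency genes, 7 killer cell type receptors, 2 activation genes and 3 survival genes with enough UMIs. In compact members 7 genes of these lists were 2-fold higher in TP, Trbc1, Il2rb, Ahr, Rgs1, Rgs2, Jaml and Tox, and none of these was 2-fold higher without called doublets. There Trbc1, Ahr, Rgs1 and Rgs2 stood at 0.861, 0.784, 0.720 and 0.611 times the Con level, and Tox, Il2rb and Jaml at 1.14, 1.13 and 1.82 times. Other genes of the T cell lists had low ratios in that setting, Lat at 0.229, Cxcr6 at 0.466, Itgb7 and Il2rg each at 0.473 and Hcst at 0.481 times the Con level. In that setting 10 list genes were counted as 2-fold lower. Some list genes with ratios past the limit had under 50 UMIs there and were not counted. The 5 genes of the type 17 list held 1 that was higher, Cd163l1, and the 7 cytotoxic genes 1, Gzmc.

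Receptor signalling genes lay close to each other in the sums. None of 13 with enough UMIs was 2-fold apart, and their median log2 ratio was 0.03, beside -0.08 over all 3650 genes. Lck, the first kinase of the receptor, stood at 186 CPM in Con and 170.5 in TP, and Ptprc at 887 and 918. Zap70 had a ratio of 1.70 (1.03 to 2.80), which became 2.67 in compact members and 0.802 without called doublets. The CD3 chains, used by the rule and given as a description, had ratios of 0.713 for Cd3e and 0.874 for Cd3g over all members and of 1.05 and 1.27 in compact members.

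Of 11 genes of the epidermal programme, 2 were higher in TP, Gzmc and Xcl1, each with most of its TP UMIs in 1 member, and the median was 0.34. Without that member Gzmc had a ratio of 1.52 (0.423 to 5.29), and its log2 ratio was -1.995 with at least 3 of the 6 T cell genes. In compact members 5 of 10 were higher, Jaml, Ahr and Il2rb beside Gzmc and Xcl1, and the median was 0.93. Over all 1955 genes compared there 5.47% were higher and the median was 0.05, and the 111 lineage genes had a median of 0.71. The higher share of lineage transcripts in TP compact members stands beside these values too. Itgae had a ratio of 0.850 (0.655 to 1.10), Klrd1 of 0.935 (0.685 to 1.27) and Ctsw of 1.16 (0.900 to 1.49), intervals that all include 1. These became 1.34, 1.32 and 1.79 in compact members and 0.652, 0.730 and 0.963 without called doublets. Il2rb, the receptor chain for interleukins 2 and 15 that keeps epidermal T cells alive, had 55 UMIs in each library and a ratio of 1.75 (1.18 to 2.58), 2.70 (1.78 to 4.10) in compact members and 1.13 without called doublets. It was seen in 44 of 192 Con and 31 of 58 TP members. After thinning the shares were 8.99% (5.22 to 14.2%) and 26.3% (15.5 to 39.7%).

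Cytokine genes were sparse. Ifng had 0 and 3 UMIs, Tnf 10 and 3, Csf2 0 and 1, and Il17a, Il22, Osm, Tnfsf11 and Fgf9 were at 0. Ltb, lymphotoxin beta, had 52 UMIs in 39 Con members and 20 in 14 TP members, and Tnfsf8, the CD30 ligand, 41 in 35 and 38 in 23. Tnfsf8 stood at 2.59 times the Con level in compact members and 0.963 times without called doublets. Ccl4 had 3 and 39 UMIs and Ccl5 2 and 22, and 37 and 20 of the TP UMIs lay in single members. Fgf7 and Fgf10, growth factors that epidermal T cells can release and that fibroblasts of the papilla also make, had 75 and 41 UMIs in Con, in 11 and 12 members, and 2 and 0 in TP. Corin, which defines the dermal papilla, moved with them, at 68 and 0 UMIs, and the part of papilla transcripts in the Fgf values was not tested.

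Immediate-early and heat shock genes, which dissociation of tissue can induce, held 5 genes of 21 that were higher in TP and none that were lower, with a median log2 ratio of 0.60. Over all 3650 genes 3.29% were higher and 4.88% lower, with a median of -0.08. The 23 listed genes summed to 5221 CPM in Con and 7992 in TP members, and to 5691 and 11536 in all other passing barcodes. Atf3 had 47 and 136 UMIs, a ratio of 5.05 (3.60 to 7.20), and 3.37 in compact members, where it rested on 10 and 13 UMIs. Tnfaip3, an inhibitor of inflammatory signalling, had a ratio of 2.26 (1.41 to 3.64) and 2.94 (1.75 to 4.97) in compact members. Leaving out the TP member with most UMIs of each gene took Egr1 from 2.40 to 1.57, Junb from 2.04 to 1.94, Dnajb1 from 2.13 to 1.61 and Tnfaip3 to 1.98, all under the 2-fold limit, and Atf3 to 3.08. In epithelial barcodes thinned Atf3 was also more frequent in TP, at 50.1% against 37.7%, beside 21.1% and 1.69% of members.

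Genes of the steroid response, of interest because the treatment is an androgen, held no gene of 5 that was 2-fold apart over all members. Nr3c1, the glucocorticoid receptor, had a ratio of 0.644 (0.432 to 0.943) over all members and 1.12 (0.708 to 1.72) in compact members. Its ratio was 0.401 without called doublets, a setting in which only 2806 of the 3650 genes had enough UMIs. Hsd11b1, an enzyme that reactivates glucocorticoids and 1 of the lineage genes, had 61 UMIs in 50 Con and 32 in 19 TP members, a ratio of 0.916 (0.577 to 1.43). No interferon response gene reached 50 UMIs. Over all members none of 4 MHC class I genes was 2-fold apart. Tapbp, which loads peptides on class I molecules, stood at 0.435 times the Con level with every member at the same weight. It stood at 0.499 in compact members, where it had under 50 UMIs and was not counted. Without called doublets, where not every gene kept 50 UMIs, it stood at 0.481.

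Several cell cycle genes were seen in a smaller share of TP members. Mki67, a protein of dividing cells, had 215 UMIs in 84 of 192 Con members and 50 in 13 of 58 TP members, a ratio of 0.406 (0.292 to 0.554), and 0.393 (0.239 to 0.618) in compact members. Top2a had a ratio of 0.434 (0.302 to 0.611) and Cenpf of 0.191 (0.0796 to 0.397). Without barcodes with markers of another cell type Mki67 stood at 0.533 and Top2a at 0.578, and with Trdc or Trdv4 only at 0.580 and 0.592, within the 2-fold limit. Top2a was also within it without called doublets, at 0.513, and with at least 3 of the 6 T cell genes, at 0.514. Pcna, of DNA replication, went the other way, with 33 and 43 UMIs and a ratio of 2.27 (1.41 to 3.70), and 1.55 without called doublets. After thinning, at least 2 of 15 cell cycle genes were seen in 24.2% (18.1 to 31.1%) of Con and 8.77% (2.91 to 19.3%) of TP members. Among compact members these were 22.2% (15.9 to 29.6%) and 10.4% (3.47 to 22.7%), and both pairs of intervals overlap. Epithelial barcodes were lower in TP too, at 15.7% against 24.1%, as were barcodes with T cell genes but no receptor UMI, at 15.4% against 34.4%. The share in Con members lay at that of epithelial barcodes, the part of free RNA in it was not tested, and no cycling is read from these shares.

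**Figure D5:**
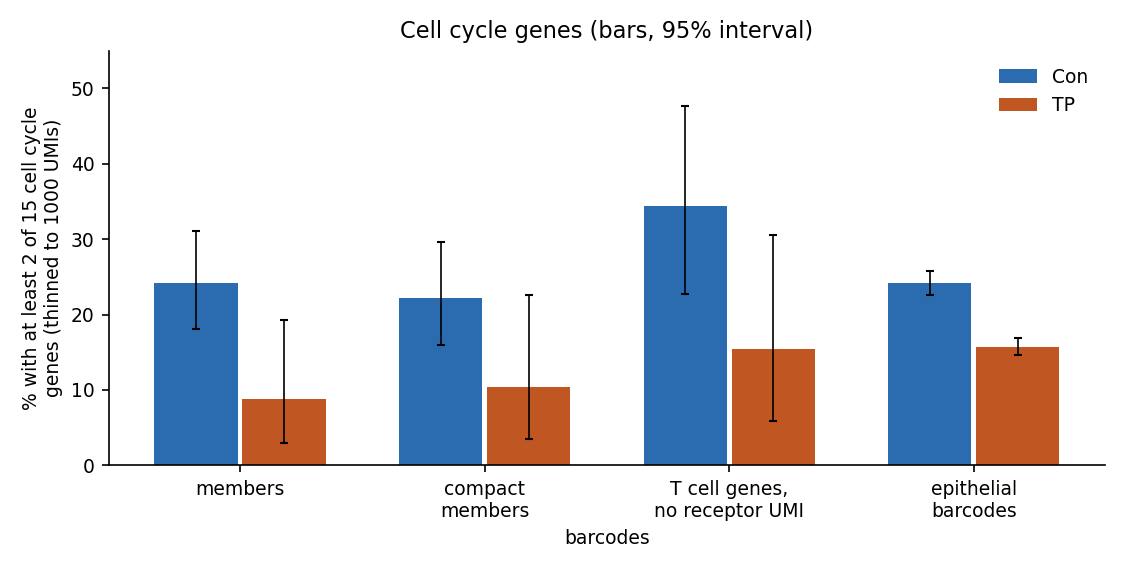
Bars give the percentage of barcodes with UMIs of at least 2 of 15 cell cycle genes after thinning to 1000 UMIs, with 95% counting intervals, in Con and TP. Members stand at 24.2% and 8.77%, compact members at 22.2% and 10.4%, and epithelial barcodes at 24.1% and 15.7%, lower in TP in every class shown.

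Keratin transcripts of the inner root sheath differed between the libraries in members and in epithelial barcodes alike. Krt71 had a UMI in 140 of 192 Con members and in 15 of 58 TP members, and Krt25 in 152 and 14. After thinning Krt71 was seen in 53.9% of Con and 12.3% of TP members, and in 38.1% and 9.78% of epithelial barcodes. In the sums over all members the direction was the opposite, with a Krt71 ratio of 3.36, since 770 of the 798 TP UMIs lay in 1 member. In compact members the ratio was 0.149, lower in TP as in the thinned shares. Krt71 is among the markers used to leave out mixed members, so the compact ratio is in part set by that filter. Krt10, of the upper epidermis, had a UMI in 154 of 192 Con members and in all 58 TP members, and thinned shares of 54.5% and 89.5%, beside 61.7% and 77.7% in epithelial barcodes.

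Barcodes with at least 2 of the 6 T cell genes but no receptor UMI formed the nearest neighbours, 71 in Con and 42 in TP. Trac was seen in 2 of the 71 (2.82%, 0.343 to 9.81%) and in 10 of the 42 (23.8%, 12.1 to 39.5%), and in 1 of 192 and 0 of 58 members. These neighbours had a median of 1860 UMIs in Con and 2978.5 in TP, so that depth differed as in the members. Several genes common in members were less frequent in them after thinning: Kcnma1 was seen in 37.7% of Con and 5.13% of TP neighbours, beside 63.5% and 78.9% of members, and Cd3d in 3.28% and 12.8%, beside 30.3% and 31.6%. The neighbours were set apart by the lack of a receptor UMI, so these values describe what the rule divides.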

How the data were processed

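The authors pooled dorsal skin of 15 mice per group, made Chromium GEM-X 3′ v4 libraries and ran Cell Ranger (8.0.1 per the submitters' processing notes) on mm10. The deposited values are raw counts of UMIs per gene and barcode, not normalized, for 32285 genes. The authors' cell limits (200 to 8000 genes, at most 10% mitochondrial UMIs) were applied here. Doublets were kept, and calls from artificial doublets (25% of the merged data, 30 components, top 7.5% removed) were an alternative. Members and gene lists were chosen with earlier results of these data known. Of 371 list symbols, 1 matched no gene name in the files. UMIs were summed over members per library and compared as log2 ratios of CPM with 1 UMI added, for genes of at least 50 UMIs. With 1 library per condition no test or p-value was computed. Intervals are Clopper-Pearson for shares, exact Poisson for sums and exact conditional binomial for ratios. Floors for a count of 0 take 3 counts. Named genes were the rule genes and markers, the genes of the lists, the 10 largest and 10 smallest ratios among genes with a symbol, and the 20 leading genes over other barcodes. Genes named beyond these (lineage genes) and the compact members were chosen after their values were seen. Epithelial barcodes had at least 50 UMIs of Krt5 and Krt14 per 10000. The count comparison was run on simulated sums drawn per gene and library as independent UMIs. These held no barcodes, so the simulation cannot show how the comparison behaves where single members hold most UMIs. Positions and promoters are from RefSeq (GRCm38.p6). Python 3.11.15, scipy 1.17.1 and edgeR 4.0.16 (TMM only) were used. Some genes of these lists are not reported here.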

Additional observations from a re-analysis of the deposited data

Results flagged for a closer look

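Signals outside the members came from the TP library. There, 1 barcode outside the limits on genes and mitochondrial UMIs met the rest of the rule, and no such barcode was found in Con. Among barcodes with T cell genes and no receptor UMI, 10 in TP carried Trac, above the 2 found in Con.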

How the results depend on the processing

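No paired analysis was possible because each condition has 1 library and the labels carry no replicate pairs. The share ratio of 0.637 lay between 0.583 and 0.870 under every alternative except 0.317 without called doublets and 0.222 per barcode with Ptprc, or 0.247 with only the members that had a Ptprc UMI. The 120 genes higher in TP became 72 with at least 3 T cell genes, 328 at a minimum of 20 UMIs and 26 at 200. The 178 lower genes became 286 with every member at the same weight, 588 at a minimum of 20 UMIs and 18 at 200. The 9 higher genes of the T cell lists became 16 in compact members, 20 without barcodes with markers of another cell type, 20 at a minimum of 20 UMIs and 3 at 200. The 4 lower became 10 without called doublets, 7 at a minimum of 20 UMIs, and 2 in compact members, without barcodes with markers of another cell type, with Trdc or Trdv4 only and at a minimum of 200 UMIs. Of 210 named genes, the log2 ratio changed sign for 67 without called doublets, 66 without barcodes with markers of another cell type, 60 in compact members, 44 with every member at the same weight and at most 30 in the other settings, mostly from small ratios. Among genes at least 2-fold apart it reversed for Gzmc (-1.995) and Col3a1 (-0.046) with at least 3 T cell genes and for Dnajb1 (-0.26) without called doublets. In compact members it reversed for Krt71 (-2.64), Krt25 (-3.27) and Krt27 (-1.12). Without barcodes with markers of another cell type these were -2.87, -2.95 and -1.27, and with Trdc or Trdv4 only -2.82, -2.77 and -1.08. Krt71, Krt25 and Krt27 are among the markers whose sum sets apart mixed members. Their lower values in compact members and without barcodes with markers of another cell type are in part set by that filter. At the same weight Krt71 and Krt25 were -0.74 and -1.07. For Krt71, Krt25 and Krt27 a single TP member held 96.5%, 95.6% and 95.9% of the TP UMIs, and the cause of the other shifts was not tested. Scaling to lineage UMIs and the compact members were added after seeing the data. With 58 TP members, genes under 50 UMIs over all members were not counted as 2-fold apart, except in the alternative at 20 UMIs. Ratios of single genes in compact members or without called doublets can rest on fewer than 50 UMIs. The pooling of mice leaves the spread between animals unknown.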
